A study of Mus musculus with 6 samples.

Results

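The genes described here are 10 serotonin receptor genes of the mouse, Htr1a, Htr1b, Htr1d, Htr1f, Htr2a, Htr2c, Htr4, Htr5a, Htr6 and Htr7, all of which encode G-protein-coupled receptors. They were taken by gene symbol from the 35415 genes in the deposited tables, and all 10 were found and passed the filter on low counts. The libraries came from the lateral septum of wild-type female C57BL/6 mice that were 8 weeks old at arrival and were acclimated for 1 week. Control mice ate plain chow for 12 weeks, and olanzapine mice ate chow with 50 mg of olanzapine per kg of feed for the same time. The deposited tables name the olanzapine pools MetS. Each library was made from tissue pooled from 3 mice, with 3 pools in either group (n = 3 for every group mean below). Variation from mouse to mouse within a pool was therefore not measured. No allele, Cre line or second agent was part of the design.

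Serotonin reaches the septum in fibres from the raphe nuclei of the brainstem, whose neurons hold the machinery that makes and takes up serotonin, while the receptors sit on the septal cells themselves. The Htr1 receptors and Htr5a couple to Gi/o proteins, which lower cyclic AMP and open inwardly rectifying potassium channels. Htr2a and Htr2c couple to Gq/11 and phospholipase C, and Htr4, Htr6 and Htr7 couple to Gs, which raises cyclic AMP. Olanzapine is an antipsychotic drug that blocks dopamine receptors and several serotonin receptors, among them the products of Htr2a, Htr2c and Htr6, and weight gain is a known side effect. The comparison of the groups asks whether long exposure to olanzapine went with a different level of any of these receptor mRNAs.

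Of these genes, 3 carry most of what follows: Htr1a and Htr7, whose mRNA was lower in every olanzapine pool than in any control pool, and Htr2c, the receptor with the highest level. Their upstream sequences are printed here so that the genes can be placed on the genome. RefSeq windows of 250 bases before an annotated start, on GRCm38.p6, were at hand for 9 of the 10 genes. For each of the 3, the sequence below is the part of that window outside the GENCODE model of the gene, 5′ to 3′ on the strand of the gene, and capitals mark a match to one of the GC box, TATA box, CCAAT box and CRE motifs spelled out after it.
Htr1a, chr13:105443443-105443638, plus strand: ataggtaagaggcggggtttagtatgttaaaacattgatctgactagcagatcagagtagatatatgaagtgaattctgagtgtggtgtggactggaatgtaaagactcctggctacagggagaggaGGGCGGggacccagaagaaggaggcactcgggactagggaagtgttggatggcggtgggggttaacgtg
Htr7, chr19:36057508-36057610, minus strand: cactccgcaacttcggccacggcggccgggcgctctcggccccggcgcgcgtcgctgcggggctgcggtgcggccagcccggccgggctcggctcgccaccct
Htr2c, chrX:146962263-146962512, plus strand: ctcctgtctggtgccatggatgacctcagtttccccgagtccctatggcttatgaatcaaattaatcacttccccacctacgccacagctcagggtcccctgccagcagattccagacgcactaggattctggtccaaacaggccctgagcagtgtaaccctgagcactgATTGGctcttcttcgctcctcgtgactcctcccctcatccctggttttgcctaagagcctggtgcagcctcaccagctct

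The motifs searched on both strands were the GC box (GGGCGG), the TATA box (TATAAA), the CCAAT box (CCAAT), the core of the cyclic AMP response element, or CRE (TGACG), the E box (CANNTG) and the glucocorticoid receptor core (AGAACA). Over all 32851 windows of 250 bases, 32.7% held the GC box, 12.4% the TATA box, 33.8% the CCAAT box, 17.8% the CRE core, 66.2% the E box and 16.1% the glucocorticoid receptor core. The Htr1a window held 1 GC box, the Htr2c window 1 CCAAT box on the opposite strand, and the Htr7 window 1 CRE core on the opposite strand, in the stretch inside the gene model that is not printed. These 3 windows held no match to the TATA box, the E box or the glucocorticoid receptor core. None of the 9 receptor genes had a TATA box match in its window, E boxes were found for Htr1d, Htr5a and Htr6, and the glucocorticoid receptor core for Htr2a. The GC content of the Htr7 window was 82.0%, against 50.4% for Htr1a, 55.6% for Htr2c and a median of 52.4% over all windows. These matches describe the letters only.

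On GRCm38, Htr1a (chr13:105443639-105448122, plus strand) is a gene of 1 exon. Htr7 (chr19:35958734-36057507, minus strand) has 5 exons in its longest GENCODE transcript, and Htr2c (chrX:146962513-147197277, plus strand) has 7, and several small RNA genes lie within its span. Of the remaining genes, Htr1d (chr4:136423524-136444398, plus strand), Htr6 (chr4:139061108-139075570, minus strand), Htr5a (chr5:27842149-27855088, plus strand), Htr2a (chr14:74640840-74709494, plus strand) and Htr1f (chr16:64924729-65105854, minus strand) have no annotated gene across them. Htr1b (chr9:81628291-81633828, minus strand) shares its locus with D430036J16Rik, a gene on the other strand, and the strand setting of the counting is not given in the sources used here. Whether their reads were told apart where the genes overlap is therefore not known.

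Counts on genes summed to between 38208153 and 39868872 per pool. Levels of single genes are given in CPM, counts scaled to a library total of 1e+06 with TMM factors. Sums over marker lists are on the same scale without these factors. All 14 genes listed as markers of lateral septum neurons were detected. Their summed level was 2869.8 to 3522 CPM in the control pools and 2387 to 3180.1 CPM in the olanzapine pools. Much of this sum was Gad1, Gad2 and Slc32a1 (832, 875 and 430 CPM in control pool 1), which GABAergic neurons of other regions, striatal ones included, also express, so the sum alone does not check the label of the tissue. Trpc4 and Crhr2, known from the lateral septum, stood at 41.6 to 87.2 and 6.91 to 13.1 CPM per pool. Some libraries stood apart in the markers of neighbouring tissue. Olanzapine pool 1 held 1236 CPM of the 13 markers of cortical and hippocampal glutamatergic neurons, against 170.4 to 253 CPM in the other 5 pools. The 14 choroid plexus markers summed to 142, 2810.0 and 7779 CPM in control pools 1 to 3 and to 1205, 5097 and 95.5 CPM in olanzapine pools 1 to 3.

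Across the whole table, 17255 genes passed the count filter and were tested. Adjusted p values are from the quasi-likelihood test of edgeR, by the method of Benjamini and Hochberg over all tested genes, unless DESeq2 is named. A call required an adjusted p under 0.05 together with a log2 fold change above 1 or below -1. By this rule 1.01% of all tested genes were called and 0 of the 10 receptor genes. Without the limit on the fold change, the shares were 2.32% of all tested genes and 0 of the 10 receptor genes. An unadjusted p under 0.05 was found for 17.6% of all tested genes and for 2 of the 10 receptor genes, or 20%; both were lower, as were 8.4% of all tested genes at that limit. The pools of the groups did not overlap in 24.3% of all tested genes and in 2 receptor genes, or 20%, with the olanzapine pools below in both, as in 11% of all tested genes, so the share among the receptors was near that of all genes by either count. DESeq2, the tool of the study, gave an adjusted p under 0.05 to 5.73% of the genes it tested and to 1 of the 10 receptor genes, Htr1a.

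Of the 10 log2 fold changes, 8 were below 0 and 2 above, with a median of -0.15 beside 0.00389 over all tested genes. The 95% interval lay between -1 and 1 for each of the 10 genes, that is, inside a 2-fold change in either direction. The interval spanned 0 for 8 of them.

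**Figure D1:**
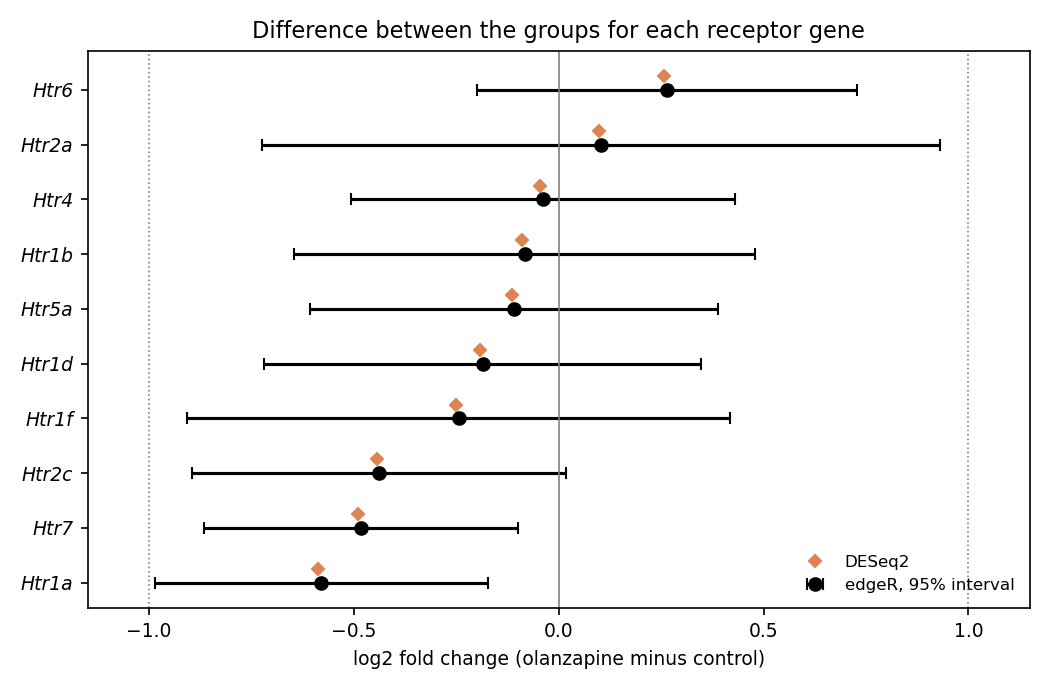
The log2 fold change (olanzapine minus control, x axis) of each receptor gene (y axis) from edgeR is drawn as a black point with its 95% interval, and that from DESeq2 as an orange diamond; dotted lines mark -1 and 1. Htr1a (-0.58) and Htr7 (-0.48) are the genes whose interval lies below 0, and Htr6 (0.26) is the highest.

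Htr1a encodes an inhibitory receptor found on septal neurons and, as an autoreceptor, on raphe neurons. Its level was 51.8, 36.1 and 31.3 CPM in control pools 1 to 3 and 24.1, 27.5 and 28.1 CPM in olanzapine pools 1 to 3. All 3 olanzapine pools lay below all 3 control pools, and control pool 1 stood well above the other control pools. The means were 39.7 ± 10.7 CPM (SD, n = 3) in the control group and 26.6 ± 2.16 CPM (SD, n = 3) in the olanzapine group. The log2 fold change was -0.58 ± 0.18 (SE), with a 95% interval from -0.99 to -0.17, and the adjusted p was 0.148 (edgeR), so Htr1a was not called. With DESeq2 the log2 fold change was -0.59 and the adjusted p 0.0277. Without control replicate 1 the edgeR log2 fold change was -0.34 (adjusted p = 0.265), a smaller difference that rests on the remaining 2 control pools. In tissue of mixed cells, fewer cells with a receptor and less of its mRNA per cell cannot be told apart.

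Htr7 encodes a Gs-coupled receptor. Its level was 34.4, 24.6 and 23.7 CPM in control pools 1 to 3 and 17.1, 19.4 and 22.7 CPM in olanzapine pools 1 to 3. As for Htr1a, the groups did not overlap and control pool 1 was the highest and olanzapine pool 1 the lowest. The means were 27.6 ± 5.93 CPM (SD, n = 3) and 19.7 ± 2.80 CPM (SD, n = 3). This was a log2 fold change of -0.48 ± 0.17 (SE), with an interval from -0.87 to -0.10 (adjusted p = 0.186, edgeR). DESeq2 gave -0.49 with an adjusted p of 0.0820, and without control replicate 1 the edgeR value was -0.29 (adjusted p = 0.410).

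Most markers of lateral septum neurons also had values below 0. Of the 14 markers, 11 had a log2 fold change below 0, and 4 had an unadjusted p under 0.05, all of them lower, a side on which 8.4% of all tested genes passed. In 2 of the 14 the groups did not overlap, against 24.3% of all tested genes. Of the 14, 0 had an adjusted p under 0.05 in edgeR and 1 with DESeq2, Prdm16, beside 2.32% and 5.73% of all tested genes. Their median log2 fold change was -0.28. The summed level was 3522, 3162 and 2869.8 CPM in control pools 1 to 3 and 2387, 2807 and 3180.1 CPM in olanzapine pools 1 to 3, highest in the control pool with the most Htr1a and Htr7 and lowest in the olanzapine pool with the least. The pools between did not keep this order, since olanzapine pool 3 had a higher sum than control pool 3 and less Htr1a and Htr7. The markers with the highest FPKM, Sst and Gad1, had log2 fold changes of 0.19 and -0.09. A fit chosen after seeing the data took the log2 of this summed level as a term in edgeR. In it the log2 fold change was -0.32 for Htr1a (adjusted p = 0.469) and -0.23 for Htr7 (adjusted p = 0.508). The choroid plexus, striatal and cortical sums as terms instead gave -0.60, -0.54 and -0.51 for Htr1a (adjusted p = 0.0723, 0.185 and 0.170) and -0.53, -0.47 and -0.40 for Htr7 (adjusted p = 0.0640, 0.219 and 0.209).

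Htr2c encodes a Gq/11-coupled receptor that is abundant both in neurons and in the epithelium of the choroid plexus. Its level was 119.9, 139 and 149 CPM in control pools 1 to 3 and 77.2, 136 and 87.9 CPM in olanzapine pools 1 to 3. Olanzapine pools 1 and 3 lay below every control pool, while olanzapine pool 2 lay among them. The means were 136 ± 14.9 CPM (SD, n = 3) and 100.3 ± 31.2 CPM (SD, n = 3), a log2 fold change of -0.44 ± 0.20 (SE), with an interval from -0.90 to 0.02 (adjusted p = 0.303, edgeR). DESeq2 gave -0.44 with an adjusted p of 0.158. Htr2c had an adjusted p under 0.05 in a single alternative fit, the one without olanzapine replicate 2. There the edgeR log2 fold change was -0.72 with an adjusted p of 0.0462. Without olanzapine replicate 1 it was -0.28 (adjusted p = 0.413), and without olanzapine replicate 3 it was -0.35 (adjusted p = 0.511).

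Olanzapine pool 2 also held the most choroid plexus RNA of its group. Ttr, the transthyretin gene and the leading marker of that epithelium, stood at 35.8, 2407 and 6845 CPM in control pools 1 to 3 and at 1024, 4227 and 20.8 CPM in olanzapine pools 1 to 3. In the control group, Htr2c was ordered as Ttr was. In the olanzapine group, pool 2 was highest in both, but pool 3 held more Htr2c than pool 1 and less Ttr. Of the 14 choroid plexus markers, all 14 had a log2 fold change below 0, with a median of -0.59, and 0 had an unadjusted p under 0.05 from edgeR's quasi-likelihood test or an adjusted p under 0.05 from edgeR or DESeq2. With their summed level as a term in the fit, also chosen after seeing the data, the log2 fold change of Htr2c was -0.39 (adjusted p = 0.264), and the lateral septum, striatal and cortical sums gave -0.44, -0.62 and -0.35. Beyond these fits, the part of choroid plexus tissue in the Htr2c level was not tested.

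**Figure D2:**
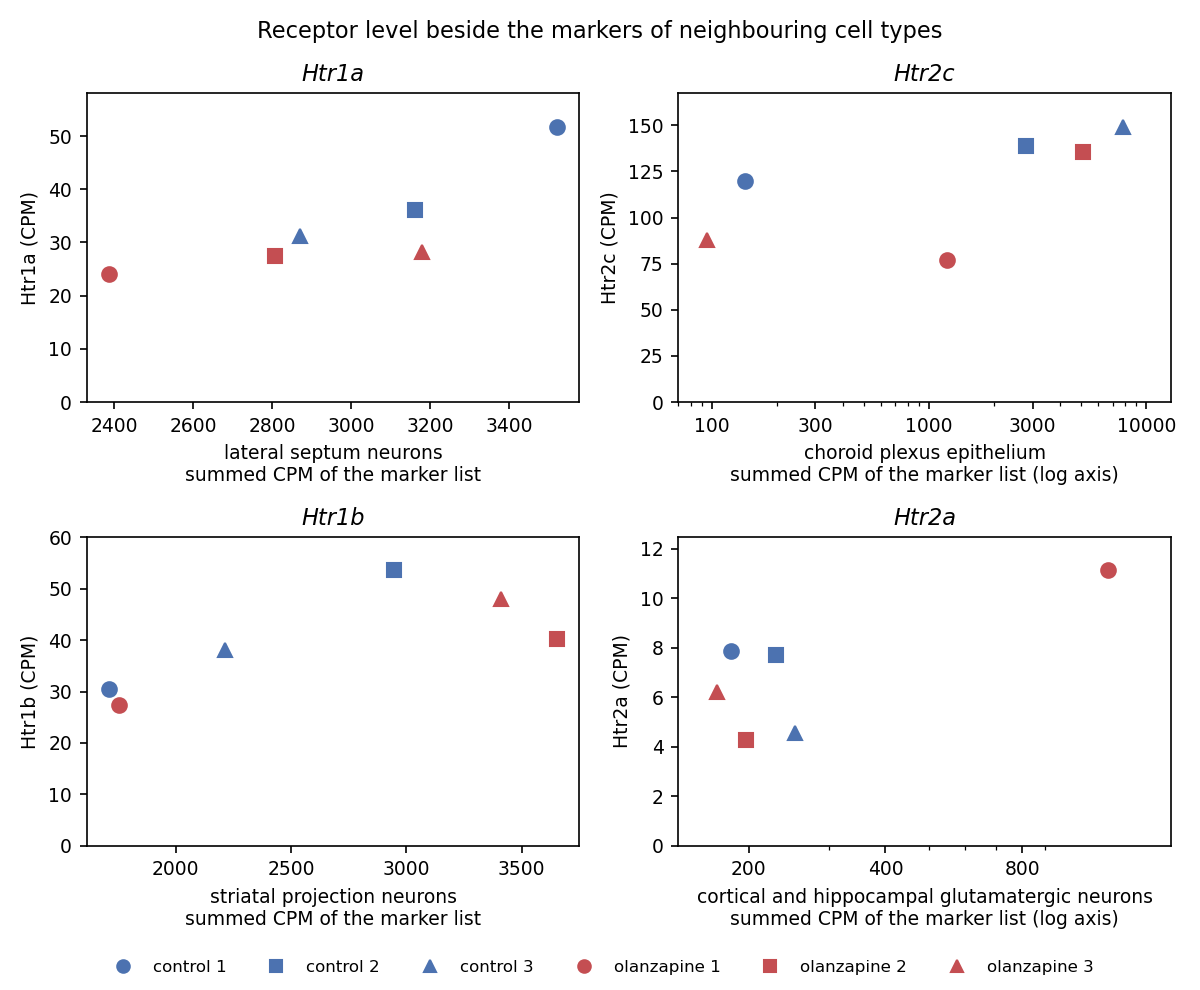
Each panel sets the level of 1 receptor gene (CPM, y axis from 0) against the summed CPM of a marker list (x axis, on a log scale in the right panels), with 1 point per pool, control blue and olanzapine red. Htr1a was highest in the pool with the most lateral septum marker RNA (3522 CPM), and Htr2a was highest in olanzapine pool 1, with 1236 CPM of cortical and hippocampal markers.

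Htr1b, which encodes an inhibitory receptor of axon terminals, spread widely within both groups. It stood at 30.6, 53.6 and 38.2 CPM in control pools 1 to 3 and at 27.4, 40.2 and 48.0 CPM in olanzapine pools 1 to 3. The ranges overlapped almost fully, with pool 1 lowest in either group. Its log2 fold change was -0.08 ± 0.24 (SE), with an interval from -0.65 to 0.48 (adjusted p = 0.894, edgeR). The interval leaves room for a change of either sign.

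The 12 markers of striatal projection neurons, which carry much Htr1b mRNA, summed to 1712, 2947 and 2214 CPM in control pools 1 to 3 and to 1756, 3653 and 3409.5 CPM in olanzapine pools 1 to 3. Both pools numbered 1 were therefore lowest in these markers, as in Htr1b. All 12 had a log2 fold change above 0, with a median of 0.30. An unadjusted p under 0.05 was found for 1, or 8.33%, against 17.6% of all tested genes. An adjusted p under 0.05 was found for 0 in edgeR and 1 with DESeq2, Rgs9, beside 2.32% and 5.73% of all tested genes. Ppp1r1b and Penk, the members with the highest FPKM, had log2 fold changes of 0.37 and 0.30. With the striatal sum as a term, chosen after seeing the data, the log2 fold change of Htr1b was -0.33 (adjusted p = 0.166), while the lateral septum and cortical sums turned it to 0.0726 and 0.0245. D430036J16Rik, the gene on the other strand at the same locus, had 176, 276 and 157 counts in control pools 1 to 3, with 149, 196 and 291 counts in olanzapine pools 1 to 3, against 1037 to 2121 counts of Htr1b.

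The other Gi/o-coupled receptors were low or moderate and overlapped between the groups. Htr5a, a receptor of forebrain neurons, stood at 14.3, 13.0 and 10.7 CPM in control pools 1 to 3 and at 15.6, 8.98 and 10.6 CPM in olanzapine pools 1 to 3, a log2 fold change of -0.11 ± 0.22 (SE). Htr1d, which like Htr1b acts on axon terminals, stood at 3.66, 5.74 and 4.24 CPM and at 3.35, 3.82 and 4.81 CPM, a log2 fold change of -0.19 ± 0.23 (SE). Htr1f, a close relative of the pair, had the fewest counts of the 10 genes, 48 to 90 per pool. It stood at 2.30, 1.67 and 1.83 CPM in the control pools and at 2.08, 1.21 and 1.60 CPM in the olanzapine pools, and its log2 fold change of -0.24 ± 0.29 (SE) had an interval from -0.91 to 0.42. The adjusted p values of Htr5a, Htr1d and Htr1f were 0.839, 0.730 and 0.715 (edgeR).

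Htr2a, the other Gq/11-coupled receptor and a target that olanzapine blocks, varied most of the 10 genes over the pools. It stood at 7.85, 7.71 and 4.54 CPM in control pools 1 to 3 and at 11.1, 4.27 and 6.20 CPM in olanzapine pools 1 to 3. The highest and the lowest value were both in the olanzapine group. The log2 fold change was 0.10 ± 0.36 (SE), with an interval from -0.72 to 0.93 (adjusted p = 0.913, edgeR). The highest value was in olanzapine pool 1, where Slc17a7, the vesicular glutamate transporter of cortical and hippocampal neurons, stood at 659 CPM against 10.7 to 55.1 CPM in the other pools. Without olanzapine replicate 1 the log2 fold change of Htr2a was -0.36 (adjusted p = 0.533), and with the summed cortical markers as a term, chosen after seeing the data, it was -0.22 (adjusted p = 0.729). The lateral septum, choroid plexus and striatal sums gave -0.12, 0.0615 and 0.24. Htr5a was highest in the same pool.

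Htr6, a Gs-coupled receptor best known from the striatum, stood at 3.33, 4.75 and 3.93 CPM in control pools 1 to 3 and at 5.38, 4.07 and 4.97 CPM in olanzapine pools 1 to 3. It had the highest log2 fold change of the 10 genes, 0.26 ± 0.20 (SE), with an interval from -0.20 to 0.73 (adjusted p = 0.544, edgeR), and olanzapine pool 2 lay within the control range. Htr4, also Gs-coupled, stood at 10.4, 10.7 and 6.73 CPM and at 9.95, 9.48 and 7.62 CPM. Its groups overlapped, and its log2 fold change was -0.04 ± 0.20 (SE) (adjusted p = 0.944).

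**Figure D3:**
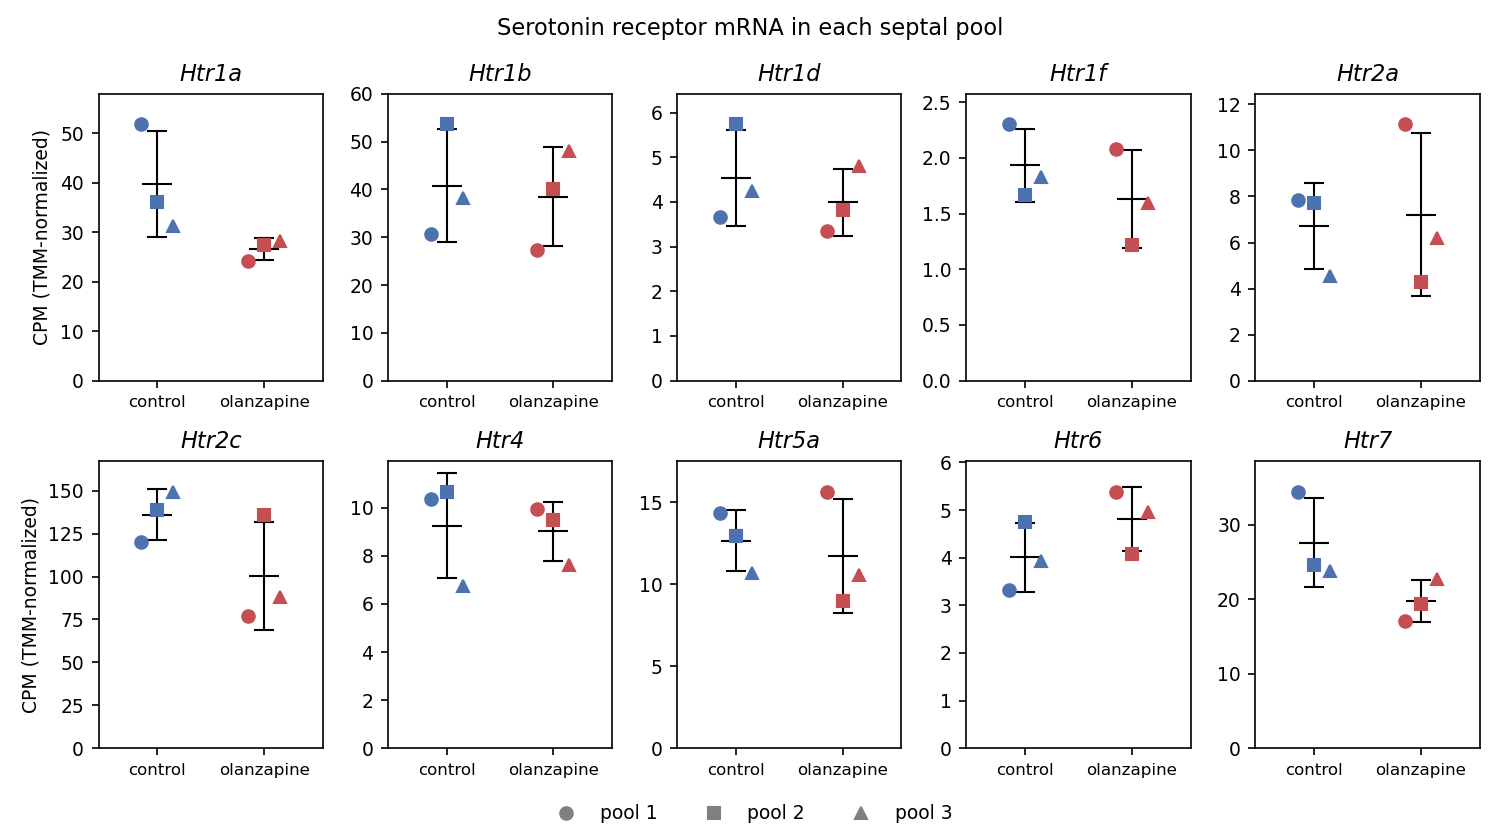
Each panel shows 1 receptor gene, with its level (CPM, y axis from 0) in the 3 control pools (blue) and the 3 olanzapine pools (red) and black bars for the mean ± SD; circle, square and triangle are pools 1, 2 and 3. Htr1a and Htr7 are the genes whose groups do not overlap, and in Htr2c the square, olanzapine pool 2 at 136 CPM, lies among the control pools.

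The deposited FPKM values divide counts by gene length, so levels of different receptors can be set side by side on that scale. Over all 6 pools the order of mean FPKM was Htr2c (24.9), Htr1b (8.35), Htr1a (7.44), Htr7 (5.91), Htr2a (2.36), Htr5a (2.09), Htr6 (1.18), Htr1f (0.708), Htr4 (0.575) and Htr1d (0.530). Htr2c was the highest in each of the 6 pools, from 16.03 to 31.4 FPKM, and its mean was above that of 85.7% of all tested genes. Htr1b and Htr1a were above 64.2% and 61.4% of tested genes, Htr7 above 56.3%, and Htr1d above 19.1%.

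Neighbours in this order were compared within pools. Htr2c was higher than Htr1b, Htr1a than Htr7, Htr7 than Htr2a and Htr5a than Htr6 in 6 of 6 pools. The pairs follow from the order in these same pools, so the counts describe the order and no test is given. The mean difference of log2(FPKM + 0.1) was 1.56 ± 0.42 (SD, n = 6) between Htr2c and Htr1b and 0.32 ± 0.10 (SD, n = 6) between Htr1a and Htr7. For the other 5 pairs of neighbours the order varied over pools. Htr1b exceeded Htr1a in 5 of 6 pools, Htr2a exceeded Htr5a in 4, Htr6 exceeded Htr1f in 5, Htr1f exceeded Htr4 in 4 and Htr4 exceeded Htr1d in 3. Control pool 1 was the pool in which Htr1a, at 11.4 FPKM, exceeded Htr1b, at 6.31 FPKM.

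The order of the receptors depends on the length by which counts are divided. The length implied by the deposited FPKM was 15866 bases for Htr4, 8047 for Htr1d and 2937 for Htr2a, while the longest GENCODE transcripts of these genes hold 4661, 2904 and 5606 bases. For Htr2c the values were close, 4750 and 4883 bases. With CPM per kilobase of the longest transcript, Htr2c and Htr1b stayed the first 2 genes, but Htr7 passed Htr1a, the reverse of the order by FPKM. Htr4 moved to the sixth place and Htr2a to the ninth.

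Summed over the 10 genes, receptor mRNA was 58.8, 62.6 and 58.6 FPKM in control pools 1 to 3 and 40.9, 55.6 and 47.7 FPKM in olanzapine pools 1 to 3. Each olanzapine pool lay below each control pool, as was the case by CPM for 11% of single tested genes, and the sum was not tested. Htr2c alone made up 38.9% to 53.7% of the sum. The shares by coupling class differed less between the groups than between pools of a group. Gq/11-coupled receptors held 46.5%, 50.6% and 56.3% of it in control pools 1 to 3, and 48.3%, 55.9% and 43.3% of it in olanzapine pools 1 to 3. Gi/o-coupled receptors held 31.0% to 36.6% and 31.9% to 40.9%, and Gs-coupled receptors 12.7% to 16.9% and 12.2% to 15.7%. Htr6 held 1.48% to 2.02% in the control pools and 2.02% to 3.46% in the olanzapine pools. Htr2a held 9.13% in olanzapine pool 1 and 2.64% to 4.46% in the control pools.

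**Figure D4:**
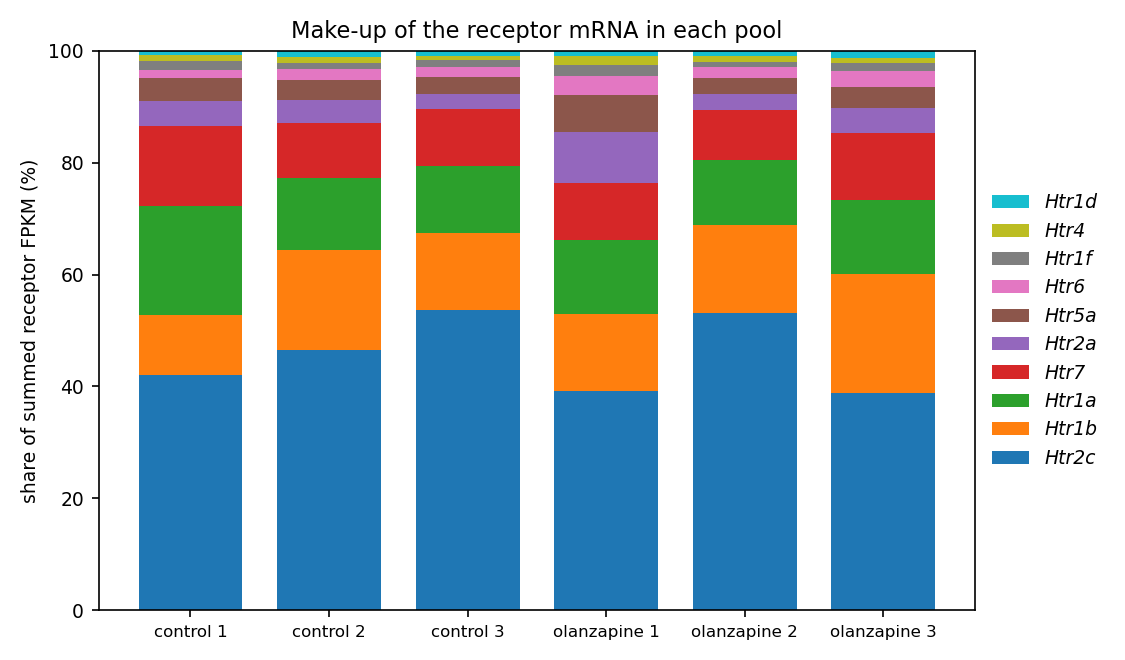
Each bar is 1 pool (x axis) and shows the share of the summed FPKM of the 10 receptor genes (%, y axis) that each gene held, with the receptor of highest level at the bottom. Htr2c takes 38.9% to 53.7% in every pool, and the purple segment, Htr2a, is widest in olanzapine pool 1 at 9.13%.

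The pattern over pools was compared between each receptor and all genes with a mean count of at least 50. Pearson's r of log2 CPM over the 6 pools is given as a description for the 3 receptors with the widest range, and with 6 points high values are easily found over so many genes. The pools differed in markers of neighbouring tissue, so likeness says nothing of shared function or control. The genes most like Htr1a were Chrnb2, a nicotinic acetylcholine receptor subunit (r = 0.997), Tril (r = 0.993) and Chrm2, a muscarinic acetylcholine receptor (r = 0.991). Those most like Htr7 were Gpr161 (r = 0.998), the receptor kinase gene Grk5 (r = 0.995) and the glycine receptor subunit Glra2 (r = 0.993). Those most like Htr2a were Slc35f6 (r = 0.992), Stxbp5l (r = 0.990) and Dock3 (r = 0.989).

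Around the receptors, 99 further genes of the serotonin system and of the pathways it signals through were read from 7 lists. Of these, 87 were tested and 0 were called by edgeR's rule, while 14, or 16.1%, had an unadjusted p under 0.05, against 17.6% of all tested genes. At an adjusted p under 0.05 without the limit on the fold change, 2 were higher and 1 lower, or 3.45%, against 2.32% of all tested genes in either direction. DESeq2 gave an adjusted p under 0.05 to 5 of them, namely these 3 with Plcb4 and Ahnak, beside 5.73% of all genes it tested. The lists were chosen with earlier results of these data known.

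Genes best known from serotonin neurons had few counts in the septal pools. Slc6a4, the serotonin transporter, had 11, 4 and 1 counts in control pools 1 to 3, with 0, 2 and 4 counts in olanzapine pools 1 to 3, too few to test. Tph2, the rate-limiting enzyme of serotonin synthesis in neurons, had 14 to 26 counts per pool, and Fev, a transcription factor of serotonin neurons, had 0 to 6. Ddc and Slc18a2, which serotonin neurons share with other monoamine cells, had more, 451 to 638 and 314 to 557 counts per pool. Of the 19 genes of synthesis, storage, uptake and breakdown, 14 were tested, with 7 log2 fold changes above and 7 below 0 and 0 unadjusted p under 0.05 from edgeR's quasi-likelihood test. Qdpr and Aldh2, enzymes with wider roles, had the highest FPKM and log2 fold changes of 0.16 and 0.01. Of the 7 transcription factors of serotonin neurons, Gata2 and En2 were tested, with log2 fold changes of 0.16 and 0.27 (adjusted p = 0.887 and 0.742). Of the 4 remaining serotonin receptor genes, Htr3a, an ion channel, differed by 0.13 on the log2 scale (adjusted p = 0.931) and Htr5b by -0.23 (adjusted p = 0.699), and Htr2b and Htr3b had at most 6 counts in any pool.

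In the Gi/o pathway, 16 of 16 genes were tested, and 3 had an unadjusted p under 0.05, or 18.8%, against 17.6% of all tested genes. At an adjusted p under 0.05, 1 was higher and 1 lower, or 12.5%, against 2.32% of all tested genes. Rgs4, which shortens Gi/o and Gq/11 signals by speeding GTP hydrolysis, stood at 139, 176 and 165 CPM in control pools 1 to 3 and at 292, 257 and 233 CPM in olanzapine pools 1 to 3. Every olanzapine pool lay above every control pool. Rgs4 rose by 0.70 ± 0.11 (SE) on the log2 scale (adjusted p = 0.0233, edgeR). Kcnj5, a subunit of the inwardly rectifying potassium channel, stood at 11.6, 11.6 and 11.1 CPM in the control pools and at 4.70, 7.13 and 6.38 CPM in the olanzapine pools. Here every olanzapine pool lay below every control pool, with a log2 fold change of -0.91 ± 0.17 (SE) (adjusted p = 0.0380). The related channel genes Kcnj3, Kcnj6 and Kcnj9 had log2 fold changes of -0.14, -0.25 and 0.33, and none of them passed. They were chosen for naming after their values were seen.

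In the Gq/11 pathway, 16 of 16 genes were tested, 3 had an unadjusted p under 0.05, or 18.8%, against 17.6% of all tested genes, and 0 an adjusted p under 0.05 in edgeR, with a median log2 fold change of -0.14. Prkcb and Gna11, the genes with the highest FPKM, had log2 fold changes of 0.08 and -0.07. In the Gs pathway, 20 of 20 were tested, 2 had an unadjusted p under 0.05, or 10%, and 0 an adjusted p under 0.05 in edgeR, with a median of -0.07. Gnas, the Gs subunit itself, and Prkar1b had log2 fold changes of -0.02 and 0.11. Of the 17 regulators and partners of receptors, 3 were higher and 3 lower at an unadjusted p under 0.05, or 35.3%, and 1 had an adjusted p under 0.05, or 5.88%, against the same 17.6% and 2.32% of all tested genes. This gene, Cdk5, a neuronal kinase, was higher at an adjusted p of 0.0498 (edgeR), just inside the threshold. Its level was 73.1, 73.1 and 79.6 CPM in control pools 1 to 3 and 99.5, 96.2 and 91.3 CPM in olanzapine pools 1 to 3, a log2 fold change of 0.35 ± 0.07 (SE). Dlg4 and Grk2 had log2 fold changes of 0.06 and 0.04. Over 15 alternative fits without a marker sum, 9 kept Rgs4 under an adjusted p of 0.05, 6 kept Kcnj5 and 5 kept Cdk5, and none turned a direction. Rgs4 was lost without control replicate 1, 2 or 3 or olanzapine replicate 2, Kcnj5 also without olanzapine replicate 3, and Cdk5 whichever of the 6 pools was left out. The highest adjusted p over these alternatives was 0.0855 for Rgs4, 0.156 for Kcnj5 and 0.183 for Cdk5 (edgeR). With the lateral septum sum as a term, chosen after seeing the data, the adjusted p was 0.0739 for Rgs4, 0.167 for Kcnj5 and 0.212 for Cdk5 (edgeR). Their log2 fold changes in that fit were 0.54, -0.77 and 0.28. With the choroid plexus, striatal or cortical sum instead, Rgs4 stayed under 0.05 with each (adjusted p = 0.0166, 0.0269 and 0.0139), Kcnj5 with the latter 2 (0.0540, 0.0208 and 0.0228) and Cdk5 with none (0.0534, 0.0503 and 0.0528).

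**Figure D5:**
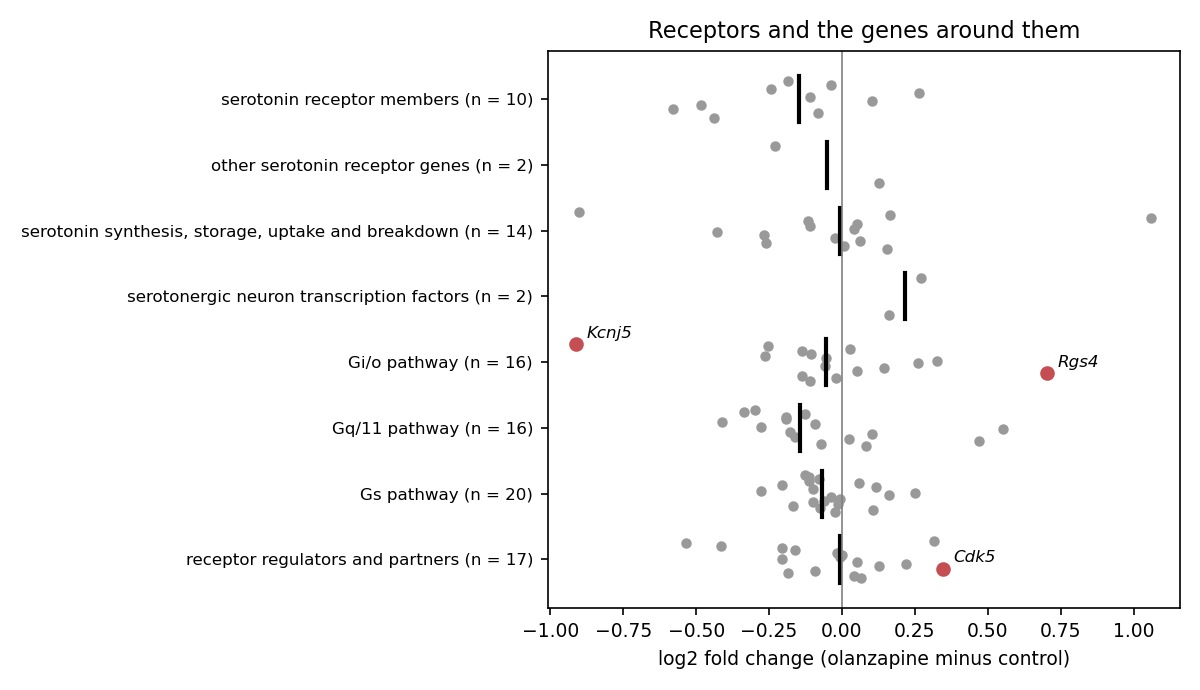
Each point is 1 tested gene, placed by its log2 fold change (olanzapine minus control, x axis) in the row of its list (y axis); grey points missed and red points passed an adjusted p of 0.05, and black bars are medians. The receptors have a median of -0.15 and no red point, and Rgs4 (0.70), Kcnj5 (-0.91) and Cdk5 (0.35) are the red ones.

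Markers of further cell types the tissue could hold are given here because they bear on any bulk comparison of receptors. Summed levels of thalamic neuron markers were 338 to 391 CPM in the control pools and 203 to 316 CPM in the olanzapine pools, of astrocyte markers 4373 to 4839 CPM and 3698 to 4192 CPM, and of oligodendrocyte precursor markers 125 to 143 CPM and 104 to 112 CPM. In these 3 lists the summed levels of the groups did not overlap, as was the case for 24.3% of single tested genes. An unadjusted p under 0.05 was found for 1 of 6, 3 of 8 and 2 of 4 members, against 17.6% of all tested genes. An adjusted p under 0.05 was found for 0 in edgeR, while DESeq2 gave 0, 0 and 2, the last being Cspg4 and Pdgfra. At that limit stood 2.32% of all tested genes in edgeR and 5.73% in DESeq2. The 7 markers of medial septum neurons summed to 82.8 to 108 CPM and 87.6 to 106 CPM, and overlapped. Oligodendrocyte, microglia, ependymal, endothelial and meningeal sums overlapped as well, but all 7 ependymal and all 7 endothelial markers had a log2 fold change below 0. An unadjusted p under 0.05 was found for 0 of 8 oligodendrocyte, 3 of 8 microglia, 1 of 7 ependymal, 2 of 7 endothelial and 0 of 8 meningeal markers. Of these 5 lists, 0 markers had an adjusted p under 0.05 in edgeR and 1 in DESeq2, the endothelial Kdr (adjusted p = 0.0149). The 16 hepatocyte markers, among them Alb, with a log2 fold change of 3.80, had a median log2 fold change of 4.01, and 15 of the 16 were called higher. Their sum, 524 to 596 CPM and 769.7 to 934 CPM, was mostly Trf, the transferrin gene, which oligodendrocytes also express. Trf was the member not called and had a log2 fold change of 0.03. Since the 15 called markers separated the groups, their part in a receptor level cannot be told apart from that of the diet. The part of the other cell types of this paragraph in the receptor levels was not tested.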

How the data were processed

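RNA was read as paired-end libraries of 150 bp from 6 pools of septal tissue. Per the submitters' processing notes and the methods of the study, reads were trimmed with fastp, aligned to mm10 with HISAT2 and counted per gene with HTSeq, and the authors deposited these raw counts. The authors also deposited FPKM, which equal the count divided by 1 fixed length per gene and by the total of the gene counts. The strand setting, annotation and definition of length are not given in the sources used here. Of the columns of values per pool, 0 were left unused.

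Counts were normalized with TMM and tested with edgeR 4.0.16 (R 4.3.3), quasi-likelihood F test, group as the only term, on genes that passed filterByExpr with a count minimum of 10 (total 15), with Benjamini-Hochberg adjustment over all of them. p-values measure the spread between pools. The procedure was tested on simulated data. CPM of single genes are counts scaled to a TMM-corrected library total of 1e+06, with a prior count of 2 where logged. Sums over marker lists use the library total without TMM correction.

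The receptor genes and all lists were chosen with earlier results of these data known. All 10 receptors are named; of each pathway list, the genes with adjusted p under 0.05 or else the 2 with the highest mean FPKM; of marker lists, the latter, not all of which are printed; and the 3 genes most like each of 3 receptors. Other genes (those called by DESeq2 alone, low serotonin neuron genes with Ddc and Slc18a2, channel genes, and Gad2, Slc32a1, Trpc4 and Crhr2) were named after their values were seen. Neighbours in the order of levels were to be tested, but that order defines the pairs, so no p is given. Alternatives were DESeq2 1.42.0; RLE or upper-quartile scaling; no count filter or a mean count of at least 50; the replicate number as a block; limma 3.58.1 on log2(FPKM + 1) or log2(FPKM + 0.1) at a mean FPKM of at least 0.1, and without that filter; unadjusted p; and leaving out each pool. Fits with a marker sum as a term used the log2 of that sum and were chosen after seeing the data.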

Additional observations from a re-analysis of the deposited data

How the results depend on the processing

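The number of receptor genes called stayed at 0 in every alternative run. With an adjusted p under 0.05 alone it was 1 with DESeq2, namely Htr1a at 0.0277, and between 0 and 1 when single pools were left out, the 1 being Htr2c without olanzapine replicate 2. Of the other pathway genes, 1 was called, Kcnj5, with the summed striatal markers as a term. With the control pools alone, 8 of the 10 receptors kept their place in the order of FPKM, Htr1a and Htr1b having changed places, and with CPM per kilobase of the longest GENCODE transcript 3 kept it. The log2 fold change turned to 0.0726 with the lateral septum sum and 0.0245 with the cortical sum for Htr1b, to -0.12 and -0.22 with the same terms for Htr2a, to 0.00203 with limma on log2(FPKM + 0.1) for Htr4 and to 0.0211 with the striatal sum for Htr5a. The cause was not tested. Over the fits that left out 1 pool, it ranged from -0.72 to -0.34 for Htr1a, -0.27 to 0.17 for Htr1b, -0.34 to 0.0204 for Htr1d, -0.46 to -0.07 for Htr1f, -0.36 to 0.37 for Htr2a, -0.72 to -0.28 for Htr2c, -0.22 to 0.0808 for Htr4, -0.37 to 0.0508 for Htr5a, 0.14 to 0.41 for Htr6 and -0.60 to -0.29 for Htr7. The labels do not say whether the replicate numbers pair the pools. Deviations of same-numbered pools from their group means correlated at -0.00262, 0.0616 and -0.255 across genes. With 3 pools per group these values cannot decide whether such pools were handled together. No control pool correlated best with the olanzapine pool of its own number. With the replicate number as a block in edgeR, 0 receptor genes were called or had an adjusted p under 0.05. In that fit the adjusted p was 0.0832 for Rgs4, 0.0882 for Kcnj5 and 0.124 for Cdk5. Their log2 fold changes there were 0.70, -0.93 and 0.35. Depth limits Htr1f most, at 48 to 90 counts per pool, and 3 pools per group limit all 10 genes.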
